A study of Mus musculus with 30 samples.

Results

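The 9 MHC class II genes H2-Aa, H2-Ab1, H2-Eb1, H2-Ea, Cd74, H2-DMa, H2-DMb1, H2-DMb2 and H2-Oa, with their transactivator Ciita, were followed through RNA-seq of 10 subcutaneous mouse tumour lines. They were taken by symbol from the 55291 gene symbols of the deposited TPM table, in which a gene's level is scaled for transcript length and to the same total in every library, and all 10 were found. Each line had 3 libraries, 30 in all. Lines of BALB/c origin were Renca (renal carcinoma), EMT6 (mammary carcinoma), CMS5a (fibrosarcoma), CT26NYESO1 (CT26 with the antigen NY-ESO-1, from its name) and CT26 (colon carcinoma). Lines of C57BL/6 origin were MC38OVA (MC38 with ovalbumin, from its name), MC38 (colon carcinoma), LL2 (Lewis lung carcinoma), and the melanoma sublines B16F10 and B16F1. Each is a cultured tumour line grown under the skin of BALB/cJ or C57BL/6J mice to a tumour length of 10 mm. Which host a library came from is not labelled, so strain here means the strain from which the tumour line was derived. Mice had or had not received OK-432, a killed streptococcal preparation, in the tumour for 24 hours, and the labels tie this to no library either. The stated question was which cancers suit OK-432. The labels call all samples CD45+ tumour-infiltrating immune cells, while the extraction protocol names RNA from suspensions of digested tumour and no sort.

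Class II molecules are pairs of an alpha and a beta chain that show peptides from ingested proteins to CD4+ T cells. They are made mainly by dendritic cells, B cells and activated macrophages, and many other cells make them after exposure to interferon-gamma. H2-Aa and H2-Ab1 encode the pair called I-A, and H2-Ea and H2-Eb1 the pair called I-E. Cd74, the invariant chain, fills the groove until H2-DM (H2-DMa with H2-DMb1 or H2-DMb2) exchanges its remnant for a peptide, and H2-O, of which H2-Oa is the alpha chain, inhibits H2-DM. Ciita is the master switch of the family. It does not bind DNA itself but docks on proteins held at the X and Y boxes of class II promoters. Mice of the C57BL/6 haplotype carry a defective H2-Ea gene and display no I-E.

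Of the 10 genes, 8 lie together at chr17:34092340-34344645 (mm10), and Ciita and Cd74 lie elsewhere. H2-Ea is annotated there as H2-Ea-ps, a polymorphic pseudogene. The promoter table of RefSeq (GRCm38.p6) held 6 of the 10 genes in 7 entries, each from 250 bases before to 50 after a gene start. A window around the Y box of 5 of them is shown because this shared element is the docking ground of Ciita. Capitals mark the Y box core (GATTGG, or CCAATC on the other strand) and the X box core (AACNGATG).
H2-Aa (chr17:34287833-34287942, minus strand): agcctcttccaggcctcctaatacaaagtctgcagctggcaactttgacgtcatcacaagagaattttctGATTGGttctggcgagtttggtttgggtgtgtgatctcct
H2-Eb1 (chr17:34305737-34305846, plus strand): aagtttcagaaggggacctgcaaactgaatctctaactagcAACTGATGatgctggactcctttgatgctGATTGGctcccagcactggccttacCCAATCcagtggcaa
H2-DMb1 (chr17:34153059-34153168, plus strand): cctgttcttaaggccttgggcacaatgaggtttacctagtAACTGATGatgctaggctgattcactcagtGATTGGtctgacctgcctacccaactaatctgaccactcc
H2-DMb2 (chr17:34145088-34145197, plus strand): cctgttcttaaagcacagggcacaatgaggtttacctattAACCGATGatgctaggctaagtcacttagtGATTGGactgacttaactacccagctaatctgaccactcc
H2-Oa (chr17:34092265-34092374, plus strand): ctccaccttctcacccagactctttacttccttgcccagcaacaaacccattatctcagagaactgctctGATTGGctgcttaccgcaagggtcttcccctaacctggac

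The Y box core, searched on both strands, was present in entries of all 6 genes, though in only 1 of the 2 entries of H2-DMa. Of all 32851 promoters of the same length, 16.1% held it. The X box core was found in H2-Eb1, H2-DMb1 and H2-DMb2, against 2.32% of all promoters. In these 3 the start of the X box core lay 29 to 30 bases before the start of the Y box core. An X box followed by a Y box within 60 bases occurred in 21 promoters in all (0.0639%). These are matches of letters within short windows, without a test of binding.

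The leukocyte label was checked first. Ptprc, which encodes CD45, ranged from 2.7 to 215 TPM over the libraries and was at most 17.3 TPM in B16F10 and B16F1. The summed level of 7 melanocyte genes was 9482 to 13669 TPM in B16F10 and 1473 to 7131 TPM in B16F1, and that of 7 epithelial genes 1471 to 2194 TPM in Renca. These markers go against a sample of CD45+ cells alone. A TPM level therefore mixes how many class II-bearing cells a library held with how much RNA each made, and fewer cells cannot be told apart from less RNA per cell. The labels do not say that the 3 libraries of a line came from separate mice, so a p measures only the spread between these samples, which may be technical.

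All 9 members other than H2-Ea, which is described by strain, differed between the 10 lines (limma F test on log2(TPM + 1), adjusted p at most 0.0103). Of all 17944 genes tested, 85.5% did, so this count says little about the family. The highest line mean was in Renca for 7 of the 10 genes and in MC38OVA for H2-DMb1, H2-Oa and Ciita, and the lowest was in B16F10 for 5 of the 9. Neighbours in the order of line means overlapped in their libraries for most steps, from 7 of 9 steps (H2-DMa and H2-DMb1) to all 9 (H2-Eb1 and Ciita). The order in the middle of the range is therefore not resolved.

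**Figure D1:**
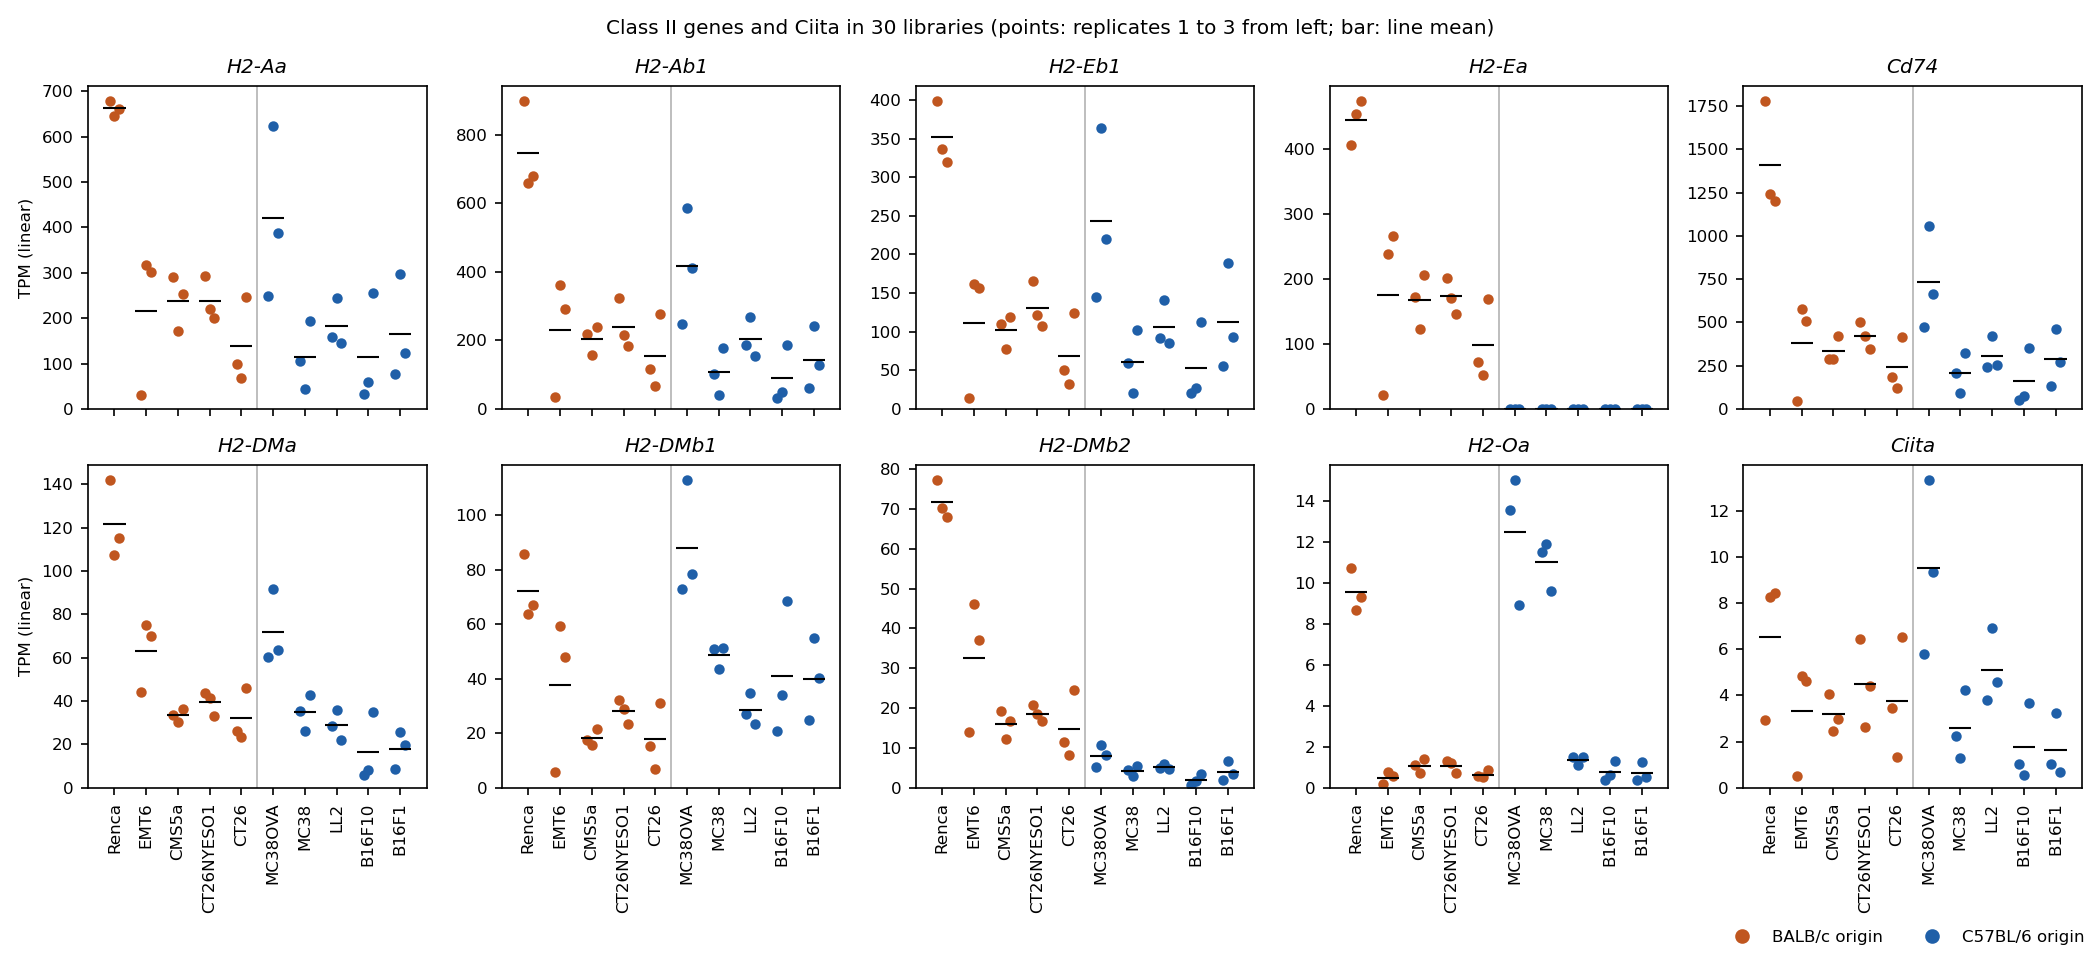
TPM of the 10 genes (vertical, linear) in each library by tumour line, with points for replicates 1 to 3 and a bar for the line mean, BALB/c-origin lines in orange on the left and C57BL/6-origin lines in blue. Renca stands highest for H2-Aa, H2-Ab1 and Cd74, H2-Ea is at 0 in all 15 blue libraries, and H2-Oa is high in Renca, MC38OVA and MC38 only.

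Each line was next compared with the average of the remaining 9, with a gene called when its Benjamini-Hochberg adjusted p (limma, over all genes tested) was under 0.05 and its log2 fold change at least 1 in either direction. In Renca 8 of the 9 members were higher, against 12.4% of all genes, and their median log2 fold change was 2.01, against -0.15 for all genes. The one not called was Ciita. In MC38OVA 5 of 9 were higher (H2-Eb1, H2-DMa, H2-DMb1, H2-Oa and Ciita), against 10.2% of all genes, with a median of 1.24 over the 9 and 0.05 over all genes. In B16F10 6 of 9 were lower (H2-Aa, H2-Ab1, H2-Eb1, Cd74, H2-DMa and H2-DMb2), against 23.2% of all genes, with a median of -1.44 over the 9 and -0.48 over all genes. In B16F1 3 of 9 were lower (H2-DMa, H2-DMb2 and H2-Oa), against 13.2%. Of all genes called in B16F10, 18.6% were higher, a share that was 40.7% under median-ratio scaling.

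The remaining lines had few calls. MC38 had 1 member higher (H2-Oa, against 8.24% of all genes) and 1 lower (H2-DMb2, against 4.06%). EMT6 had 1 higher (H2-DMb2, against 10.2% of all genes) and 1 lower (H2-Oa, against 4.7%), and CT26 had 2 lower (H2-DMb1 and H2-Oa, against 4.91%). In LL2, CT26NYESO1 and CMS5a limma called 0 of 9, where 2, 2 and 3 members had an unadjusted p under 0.05 and 14.5%, 12.6% and 13.7% of all genes were called in either direction. The Renca count was 8 whichever library was left out, although without Renca replicate 1 it held Ciita in place of H2-DMb1. The MC38OVA count was 1 without MC38OVA replicate 2, 3 without B16F10 replicate 1, and 8 without EMT6 replicate 1 or B16F10 replicate 3. The B16F10 count was 2 without its replicate 1 or its replicate 2, and the B16F1 count was 1 without its replicate 1. The count of lower members in MC38 was 3 without its replicate 3 and 4 without EMT6 replicate 1, that of higher members in EMT6 was 2 without EMT6 replicate 1, and that of lower members in CT26 was 1 without its replicate 2. CMS5a had 1 lower member without EMT6 replicate 1, CT26 replicate 2, B16F1 replicate 1 or B16F10 replicate 1. LL2 had 1 without any of the same 4 libraries, and also without MC38 replicate 2, MC38OVA replicate 1 or LL2 replicate 2.

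Relative to 10 pan-leukocyte genes the pattern split. Renca had 9 of 9 members higher on that scale, whereas MC38OVA had 0 higher and 1 lower, B16F10 had 0 lower and 1 higher, and B16F1 had 0 lower and 5 higher. The summed level of those leukocyte genes was 585 to 659 TPM in Renca, 1176 to 2628 TPM in MC38OVA, 483 to 689 TPM in B16F10 and 141 to 406 TPM in B16F1. On that scale the median log2 fold change of all genes was itself 0.29 in Renca, -1.51 in MC38OVA, 1.34 in B16F10 and 1.45 in B16F1, and that of the 9 members was 2.45 in Renca, -0.32 in MC38OVA, 0.38 in B16F10 and 1.01 in B16F1. Of all genes called on that scale, 82.2% were higher in Renca, 1.3% in MC38OVA, 96.9% in B16F10 and 98.1% in B16F1. The share of all genes called on that scale is not given here, so counts of calls on it have no background beside them. The line with the most class II, Renca, was not the line with the most leukocyte transcripts, which was MC38OVA. Without that scaling, 0 of the 10 leukocyte genes were higher in Renca (against 12.4% of all genes) and 1 was lower (against 10.5%). Of the same 10 leukocyte genes, 9 were higher in MC38OVA (against 10.2% of all genes) and 9 were lower in B16F10 (against 23.2%). Their part in the class II differences of MC38OVA, B16F10 and B16F1 was not tested beyond this rescaling.

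**Figure D2:**
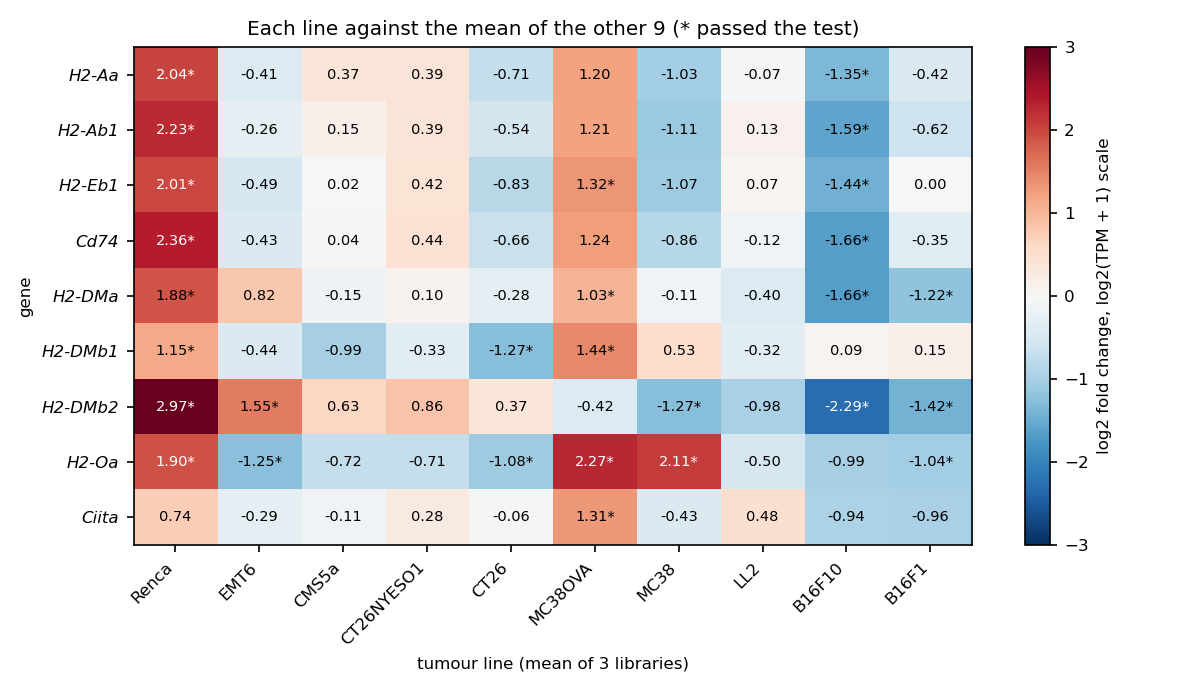
Log2 fold change of each line relative to the remaining 9 lines, on the log2(TPM + 1) scale, for 9 genes (rows) and 10 lines (columns), with an asterisk where a gene passed the test. Renca is above 1 for every gene except Ciita, at 0.74, and MC38 is at 2.11 for H2-Oa beside -1.27 for H2-DMb2.

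The I-A chains and I-E beta chain, which form the antigen-presenting molecule itself, were highest in Renca. H2-Aa had 679, 647 and 661 TPM in Renca, against 29.9 to 623 TPM in the 27 libraries of the other lines. All 3 Renca libraries lay above all others. H2-Aa was 2.04 ± 0.53 higher on the log2 scale (SE, adjusted p = 0.0019, limma). Its partner H2-Ab1 had 898, 660 and 680 TPM in Renca, against 32.2 to 587 TPM elsewhere, again without overlap, and was 2.23 ± 0.51 higher (SE, adjusted p = 5.7e-04, limma). H2-Eb1 had 399, 337 and 320 TPM in Renca and rose by 2.01 ± 0.52 (SE, adjusted p = 0.0017, limma), although MC38OVA replicate 2 reached 364 TPM and lay among them.

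Cd74, the chaperone, had the highest TPM of the 10 genes in all 10 lines, at line means from 161 to 1409 TPM. It had 1780, 1241 and 1205 TPM in Renca, against at most 1056 TPM in any other library, and was 2.36 ± 0.52 higher (SE, adjusted p = 3.9e-04, limma). In MC38OVA the same 4 genes stood next in order. H2-Aa had 249, 623 and 387 TPM in MC38OVA and was 1.20 ± 0.53 higher than in the other lines, which did not pass the test (SE, adjusted p = 0.074, limma). H2-Ab1 and Cd74 did not pass it either, at 1.21 ± 0.51 and 1.24 ± 0.52 (SE, adjusted p = 0.06 and 0.058, limma). H2-Eb1 did, at 1.32 ± 0.52 (SE, adjusted p = 0.044, limma), but the call was lost in 13 of the 30 fits that left out 1 library, its own replicates 2 and 3 among them, with fold changes of 0.97 to 1.64 over all such fits. The 3 MC38OVA libraries were far apart, and the one with the most class II, replicate 2, also had the most Ptprc (215 TPM, against 87.5 and 159 TPM in the other two).

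At the low end stood B16F10. H2-Aa had 33.1, 58.4 and 255 TPM in B16F10, against a median of 244 TPM in the other 27 libraries, and fell by 1.35 ± 0.53 on the log2 scale (SE, adjusted p = 0.028, limma). H2-Ab1, H2-Eb1 and Cd74 were lower by more, with log2 fold changes of -1.59, -1.44 and -1.66. Replicate 3 of B16F10 lay in the middle of the other lines for each of these genes, and the spread within the line was about as large as its mean (for H2-Aa 116 ± 122 TPM, SD, n = 3). Leaving out B16F10 replicate 1 or replicate 2 ended the calls of all 4 genes, and so did scaling by the median ratio of all genes, under which only H2-DMa and H2-DMb2 of the 9 were lower. With no filter on low values the calls of H2-Aa (adjusted p = 0.079, limma) and H2-Eb1 (adjusted p = 0.053, limma) were lost. B16F1, the sister subline, had 77.2, 296 and 124 TPM of H2-Aa and no call for these 4 genes.

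The pairs of related lines gave no call. MC38OVA against MC38 had H2-Aa at 249, 623 and 387 TPM in MC38OVA and 107, 43.8 and 193 TPM in MC38, without overlap. The log2 fold change was 2.01 ± 0.72 (SE, adjusted p = 0.17, limma). All 9 members were higher in MC38OVA, with a median of 1.57, and limma called 0 of them, against 1.31% of all genes in either direction, with 6 at an unadjusted p under 0.05. Leaving out EMT6 replicate 1, a library of neither line, gave 1 call. The summed level of the pan-leukocyte genes averaged 1946 TPM in MC38OVA and 908 TPM in MC38. Relative to those genes the median of the 9 members in this pair was 0.51, against -1.10 for all genes. The part of leukocyte content in this pair was not tested further. CT26NYESO1 against CT26 had 0 called by limma (2.27% of all genes) and 0 at an unadjusted p under 0.05, with a median of 0.84. B16F10 against B16F1 had 0 called by limma (20.9% of all genes) and 0 at an unadjusted p under 0.05, with a median of -0.78 over the members and -0.25 over all genes. It had 4 lower members without B16F10 replicate 3 and 1 without B16F1 replicate 1. The change of the MC38 pair minus that of the CT26 pair was called by limma for 0 of 9 members, against 2.62% of all genes, with 0 at an unadjusted p under 0.05.

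The chains kept close proportions while their levels varied. H2-Aa over H2-Ab1 was between 0.756 and 1.36 in all 30 libraries, with a median of 1.02. H2-Eb1 over H2-Ab1 was 0.414 to 0.587 in the BALB/c-origin libraries and 0.491 to 0.907 in the C57BL/6-origin libraries, with medians of 0.492 and 0.579. Cd74 over H2-Aa was 0.981 to 2.62. The library of a line with the most H2-Aa also had the most H2-DMb2 in 10 lines, the most of each of H2-Ab1, H2-Eb1, Cd74, H2-DMa, H2-DMb1 and Ciita in 9 lines, though not the same 9 for all, and the most H2-Oa in 7. For H2-Ea this held in 2 of the 5 lines of BALB/c origin, and the median over all tested genes was 3 of 10 lines. The library with the least H2-Aa also had the least H2-Ab1, H2-DMa and H2-DMb1 in 10 lines, but the least Cd74 and H2-Oa in 7 and the least Ciita in 5. Summed marker levels peaked in the library with the most H2-Aa in 9 lines for conventional dendritic cells, 8 for NK cells, 8 for pan-leukocyte genes, 7 for T cells and 4 for macrophages. The number of lines was 7 for B cells and eosinophils, and 5 for mature dendritic cells and monocytes. It was 4 for plasmacytoid dendritic cells, neutrophils and melanocytes, and 2 for fibroblasts, endothelium and epithelium. EMT6 had a wide spread, with H2-Aa at 29.9, 317 and 302 TPM and Cd74 at 47.7, 579 and 508 TPM. In EMT6 replicate 1 H2-DMa was nevertheless 44.4 TPM, against 74.9 and 70.1 TPM in the other two. Its macrophage genes summed to 1520 TPM, against 1917 and 1262 TPM, and its conventional dendritic cell genes to 14.1 TPM, against 25.6 and 23.0 TPM. Its T cell genes summed to 13.3 TPM, against 46.2 and 42.5 TPM, and its NK cell genes to 10.7 TPM, against 48.1 and 51.6 TPM. The part of these cell types in the class II levels was not tested.

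H2-Ea, the I-E alpha chain, split the libraries by strain of origin without exception. It was between 21.2 and 472 TPM in the 15 libraries of BALB/c origin, with a median of 172 TPM, and was listed at 0 in all 15 libraries of C57BL/6 origin. No value of 10 housekeeping genes was at 0 in any library. This split is given as a description with no test, since H2-Ea entered the tested genes only through the libraries of BALB/c origin. For its partner H2-Eb1 the difference between strains did not pass an exact two-sided permutation test over the 10 line means (p = 0.52). H2-Eb1 line means were 68.6 to 352 TPM in BALB/c-origin and 53.3 to 243 TPM in C57BL/6-origin lines, and the ranges overlapped, with H2-Ea listed at 0 in every library of C57BL/6 origin. No fold is given against a group at 0.

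Within the lines of BALB/c origin H2-Ea followed H2-Eb1, with a ratio of 1.02 to 1.72 and a median of 1.47. Renca had 405, 453 and 472 TPM of H2-Ea, against 21.2 to 265 TPM in the other 4 lines of BALB/c origin. The difference was 1.78 ± 0.41 on the log2 scale (SE, adjusted p = 6.2e-04, limma), and 11.5% of all genes were called higher in that comparison. CT26 had 72.3, 51.6 and 170 TPM with a log2 difference of -1.16 ± 0.41 (SE, adjusted p = 0.032, limma), where 5.1% of all genes were called lower. That call was lost without CT26 replicate 1 or replicate 2, and also with no filter (adjusted p = 0.08, limma), relative to the pan-leukocyte genes (adjusted p = 0.12, limma) and without the B16 sublines (adjusted p = 0.052, limma). EMT6, CMS5a and CT26NYESO1, at 175, 167 and 173 TPM on average, were not called (limma, against 14.1%, 13.9% and 10.1% of all genes in either direction). The fit shared 1 estimate of spread with the 15 libraries of C57BL/6 origin, which were all at 0 and added no spread. The SEs and adjusted p of H2-Ea here are therefore likely too small. H2-Eb1, whose CT26 difference from the same lines was -1.19 ± 0.55, was not called (SE, adjusted p = 0.10, limma). These comparisons within the strain were added after the values had been seen.

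**Figure D3:**
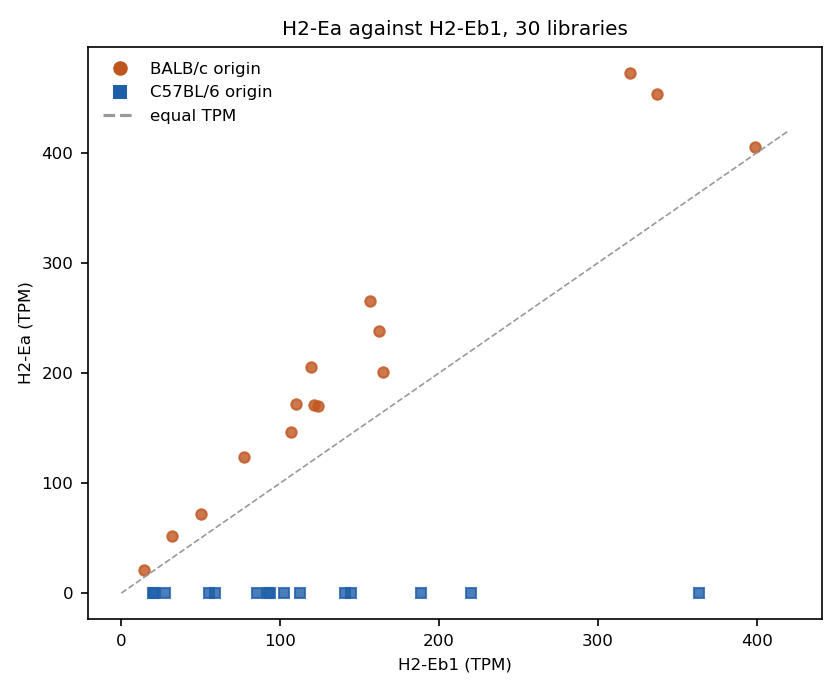
H2-Ea (vertical) against H2-Eb1 (horizontal) in TPM, 1 point per library, with circles for BALB/c origin, squares for C57BL/6 origin and a dashed line at equal TPM. The circles lie on or above the line, at ratios of 1.02 to 1.72, and the 15 squares lie at 0 over the whole range of H2-Eb1.

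H2-DM, the peptide editor, differed from the chains in its beta subunits. Its alpha chain H2-DMa had 142, 108 and 115 TPM in Renca, against 6.08 to 91.6 TPM elsewhere, without overlap, and was 1.88 ± 0.30 higher (SE, adjusted p = 7.0e-06, limma). It was also higher in MC38OVA, by 1.03 ± 0.30 (SE, adjusted p = 0.0073, limma), a call lost without MC38OVA replicate 2, B16F1 replicate 1 or B16F10 replicate 1. It fell by 1.66 ± 0.30 in B16F10 (SE, adjusted p = 3.0e-05, limma) and by 1.22 ± 0.30 in B16F1 (SE, adjusted p = 0.0012, limma), and the B16F1 call was lost without its replicate 1. H2-DMb1, a beta chain, was highest in MC38OVA at 72.8, 113 and 78.3 TPM, and in Renca at 85.8, 63.7 and 67.2 TPM. The Renca libraries overlapped with others, and the log2 fold change of 1.15 ± 0.40 (SE, adjusted p = 0.017, limma) was 1.02 and not called without Renca replicate 1. It was lowest in CT26 at 15.4, 6.85 and 31.0 TPM, with a log2 fold change of -1.27 ± 0.40 (SE, adjusted p = 0.012, limma) that was not called without CT26 replicate 2. In B16F10, where the chains were low, H2-DMb1 stood at 41.1 TPM and its log2 fold change was 0.09.

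H2-DMb2, the other beta chain, was the only one of the 9 members other than H2-Ea to be called between the strains. It had 8.30 to 77.2 TPM in the 15 BALB/c-origin libraries, with a median of 19.2 TPM, and 0.66 to 10.8 TPM in the 15 C57BL/6-origin libraries, with a median of 4.66 TPM. The lowest of the BALB/c-origin libraries, CT26 replicate 2, overlapped with MC38OVA. Over line means the log2 difference was 2.30 ± 0.47 (SE, adjusted p = 0.037, limma on 10 line means), where 1.18% of all genes were called higher in BALB/c-origin lines. The call was lost without MC38OVA replicate 1 (adjusted p = 0.05, limma) or CT26 replicate 3 (adjusted p = 0.06, limma), and with related lines averaged into 7 families, where the difference was 2.40 (adjusted p = 0.25, limma). Renca, at 77.2, 70.3 and 68.1 TPM, lay above every other library, with at most 46.2 TPM elsewhere, and was 2.97 ± 0.30 higher than the other lines (SE, adjusted p = 2.3e-09, limma). EMT6 came next at 14.1, 46.2 and 37.2 TPM and was 1.55 ± 0.30 higher (SE, adjusted p = 1.0e-04, limma). B16F10 had the least, at 0.66, 1.72 and 3.49 TPM, with a log2 fold change of -2.29 ± 0.30 (SE, adjusted p = 1.9e-07, limma).

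The balance of the beta chains separated the strains with no overlap. H2-DMb2 over H2-DMb1 was 0.635 to 2.50 in BALB/c-origin libraries, with a median of 0.782, and 0.0318 to 0.199 in C57BL/6-origin libraries, with a median of 0.0887. The 2 genes are neighbours, and their main transcripts are 93.9% identical over 1255 aligned bases, with an identical run of 221 bases, so that reads can be assigned to either. The level of each gene alone is thus uncertain, and the part of read assignment in the difference was not tested. The processing notes name 1 reference, mm10, for libraries of both strains of origin. The part of this shared reference in differences between strains was not tested either. Their summed level averaged 144 TPM in Renca, 70.2 TPM in EMT6, 96.1 TPM in MC38OVA and 52.9 TPM in MC38, and 32.5 to 46.8 TPM in the other lines.

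**Figure D4:**
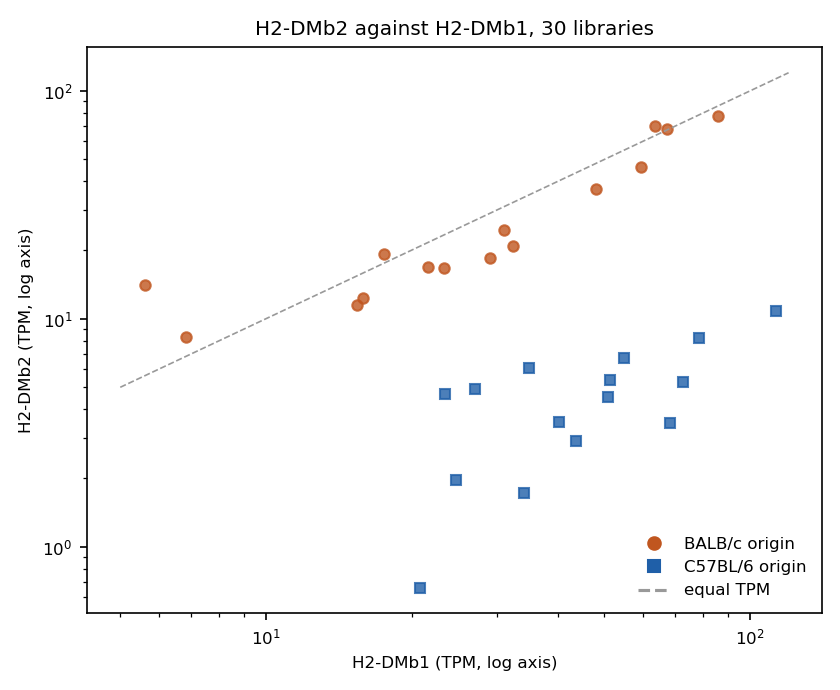
H2-DMb2 (vertical) against H2-DMb1 (horizontal) in TPM on log axes, 1 point per library, with circles for BALB/c origin, squares for C57BL/6 origin and a dashed line at equal TPM. The circles lie near the line, with a median ratio of 0.782, and the squares well below it, with a median of 0.0887.

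H2-Oa, the alpha chain of the H2-DM inhibitor, was high in 3 lines of both strains and low in the other 7. It had 10.7, 8.69 and 9.29 TPM in Renca, 13.5, 15 and 8.94 TPM in MC38OVA and 11.5, 11.9 and 9.58 TPM in MC38. In the other 21 libraries it was between 0.169 and 1.5 TPM. It was called higher in these 3 lines, by 1.9 ± 0.16 in Renca (SE, adjusted p = 1.3e-10, limma), 2.27 ± 0.16 in MC38OVA (SE, adjusted p = 1.2e-11, limma) and 2.11 ± 0.16 in MC38 (SE, adjusted p = 4.7e-11, limma). MC38 had H2-Aa at 107, 43.8 and 193 TPM, and its ratio of H2-Oa to H2-Aa reached 0.271, against a median of 0.00561 over all libraries. Between MC38OVA and MC38 the log2 difference in H2-Oa was 0.15 ± 0.22 and did not pass the test (SE, adjusted p = 0.92, limma).

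B cells are a main source of H2-O, so their markers were read beside it. The summed level of 10 B cell genes was 12.2 to 17.7 TPM in Renca, 31.3 to 41.0 TPM in MC38OVA, 21.2 to 36.2 TPM in MC38 and 26.2 to 35.9 TPM in CMS5a, where H2-Oa averaged 1.06 TPM. In all other lines it was at most 12.4 TPM. Ms4a1, a B cell surface gene, averaged at most 0.472 TPM in the 3 lines with high H2-Oa, and was highest in CMS5a at 1.39 TPM. Pax5, the B cell master regulator, averaged 2.85 TPM in Renca, 4.76 TPM in MC38OVA and 6.25 TPM in MC38, and at most 0.799 TPM in any other line, so it was highest in the same 3 lines as H2-Oa. H2-Ob, the partner chain needed for a whole H2-O, was not, being highest in LL2 at 2.94 TPM, with 1.53 TPM in Renca, 1.97 TPM in MC38OVA and 0.979 TPM in MC38. The part of B cells in the H2-Oa levels was not tested.

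Ciita, the switch of the family, was low throughout, at line means from 1.64 TPM (B16F1) to 9.49 TPM (MC38OVA). It had 5.79, 13.3 and 9.36 TPM in MC38OVA, against 0.522 to 8.45 TPM elsewhere, and was 1.31 ± 0.38 higher (SE, adjusted p = 0.0066, limma). Without MC38OVA replicate 2 it was 1.05 higher and not called. In Renca, where the chains and Cd74 were highest, Ciita had 2.92, 8.28 and 8.45 TPM and was 0.74 ± 0.38 higher, which did not pass the test (SE, adjusted p = 0.095, limma). Renca replicate 1 combined the lowest Ciita of that line with the highest Cd74 of all libraries (1780 TPM). It also had the lowest Ptprc of the line, at 9.28 TPM, against 29.9 and 28.1 TPM in replicates 2 and 3. Without it, Ciita in Renca was 1.16 higher and called (adjusted p = 0.033, limma), as it was relative to the leukocyte genes, at 1.17 (adjusted p = 0.0028, limma).

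Over the 10 line means of log2(TPM + 1), given as a description of lines that include 3 related pairs and share a scaling to a fixed total, Ciita had a Pearson r of 0.805 with H2-Aa, 0.842 with H2-Ab1, 0.781 with H2-Eb1, 0.799 with Cd74 and 0.761 with H2-DMa. It had 0.419 with H2-DMb1, 0.482 with H2-DMb2 and 0.577 with H2-Oa, where the median over all tested genes was 0.162. These values were higher for the chains and Cd74 than for the beta chains of H2-DM and H2-Oa, a difference that was not tested. The mean of the pan-leukocyte genes had 0.734 with Ciita and 0.357 with the mean of H2-Aa, H2-Ab1, H2-Eb1 and Cd74. With related lines averaged into 7 families these were 0.591 and 0.0806, and Ciita had 0.742 with H2-Aa and 0.767 with Cd74. Over the 10 line means, other cell lists had from -0.483 (melanocytes) to 0.734 (eosinophils, 1 tested gene) with the class II mean. Among them were conventional dendritic cells (0.621), mature dendritic cells (0.630), macrophages (0.543), T cells (0.266) and neutrophils (0.064). With Ciita the same 5 lists had 0.765, 0.787, 0.725, 0.555 and 0.421. Endothelium and epithelium had 0.711 and 0.615 with the class II mean, and 0.547 and 0.388 with Ciita. Over the 7 families, endothelium and epithelium had 0.736 and 0.773 with the class II mean. Conventional dendritic cells, mature dendritic cells and macrophages then had 0.471, 0.689 and 0.283. The 5 genes most like Ciita over the 10 line means were Dapp1 (0.893), Mir5107 (0.888), Arid3b (0.872), Pik3r6 (0.865) and Fut7 (0.865). The 5 most like the mean of H2-Aa, H2-Ab1, H2-Eb1 and Cd74 were Mir5107 (0.960), Cd209a (0.900), Podn (0.898), Tfec (0.896) and Orai1 (0.876). Mir5107 is annotated inside Cd74, so its reads cannot be told apart from those of the host gene. Cd209a encodes a lectin of dendritic cells, and had 8.80 TPM in Renca and 4.81 TPM in MC38OVA, against 0.581 TPM in B16F10. It also averaged 4.18 TPM in CMS5a and 3.14 TPM in LL2, where no class II member was called.

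**Figure D5:**
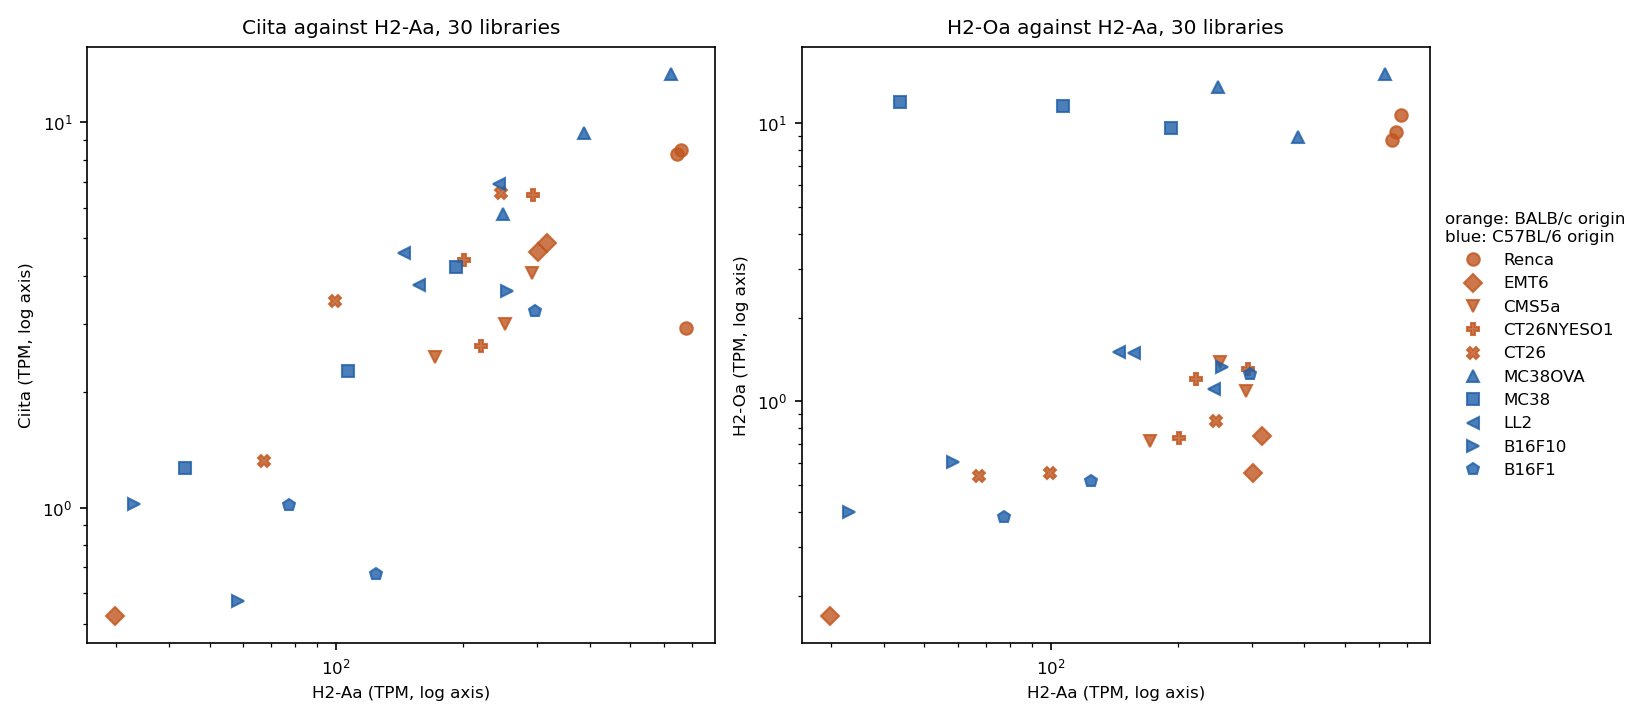
Ciita (left) and H2-Oa (right) against H2-Aa in TPM on log axes, 1 symbol per library by line, BALB/c origin in orange and C57BL/6 origin in blue. Renca replicate 1 has Ciita at 2.92 TPM beside the highest H2-Aa, at 679 TPM, while H2-Oa forms a high group of 9 libraries at 8.69 TPM or more and a low group of 21 at 1.5 TPM or less.

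The proteins that hold Ciita at the promoter gave no call in these lines. Of the 7 genes of the RFX, NF-Y and CREB factors (Rfx5, Rfxap, Rfxank, Nfya, Nfyb, Nfyc and Creb1), limma called 0 in either direction in Renca, MC38OVA or B16F10. Over all genes 12.4% were called higher and 10.5% lower in Renca, 10.2% higher in MC38OVA and 23.2% lower in B16F10. In the same order, 5, 1 and 4 of the 7 had an unadjusted p under 0.05 (limma). Their median log2 fold changes were -0.42, 0.01 and -0.40. The lack of a call does not show that these genes were unchanged. Rfx5, the DNA-binding subunit of RFX, averaged 8.25 TPM in Renca, 13.7 TPM in MC38OVA and 5.01 TPM in B16F10.

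Interferon-gamma is the best known inducer of Ciita. Of 8 genes of its pathway, 1 was higher (against 12.4% of all genes) and 5 were lower (against 10.5%) in Renca, with a median log2 fold change of -1.13. In MC38OVA 4 of the 8 were higher (against 10.2% of all genes), with a median of 1.20. Renca and MC38OVA, the lines with the most H2-Aa, were not tested against each other. Relative to the pan-leukocyte genes the median of the 8 was -0.69 in Renca, against 0.29 for all genes. On that scale it was -0.36 in MC38OVA, against -1.51 for all genes. Ifng, the cytokine, averaged 0.213 TPM in Renca and 9.43 TPM in MC38OVA. Irf1, a transcription factor it induces, averaged 31.3 TPM in Renca and 260 TPM in MC38OVA. Socs1, the feedback inhibitor, averaged 0.845 TPM in Renca and 15.9 TPM in MC38OVA, and its log2 fold changes against the other lines were -1.88 ± 0.18 in Renca (SE, adjusted p = 1.4e-09, limma) and 1.64 ± 0.18 in MC38OVA (SE, adjusted p = 4.1e-08, limma). The member that rose in Renca was Ifngr1, a receptor chain, at 166 TPM. In B16F10, 4 of 8 were lower (against 23.2% of all genes). Relative to the pan-leukocyte genes their median in B16F10 was 0.79, below the 1.34 of all genes. MC38 had 4 of 8 higher (against 8.24% of all genes). On the pan-leukocyte scale 0 of 8 were higher in MC38, where the median of all genes was -0.30 and no share of calls is given. MC38 averaged 4.36 TPM of Ifng, 215 TPM of Irf1 and 114 TPM of H2-Aa, the lowest line mean of H2-Aa. The part of interferon-gamma in the class II levels was not tested.

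The enzymes that cut antigen and the invariant chain also differed by line. Of 7 such genes, 3 were higher in Renca (against 12.4% of all genes), 2 were higher in MC38OVA (against 10.2%) and 6 were lower in B16F10 (against 23.2%). Relative to the pan-leukocyte genes their median log2 fold change was 1.36 in Renca, -0.61 in MC38OVA and 0.60 in B16F10, against 0.29, -1.51 and 1.34 for all genes. Ctsd, an aspartic protease of lysosomes, averaged 3625 TPM in Renca, against at most 800 TPM in any other line, with a log2 fold change of 2.66 ± 0.18 (SE, adjusted p = 6.1e-13, limma). Ctss, the main protease of the invariant chain in dendritic cells and B cells, was not among the 3. It averaged 303 TPM in Renca and 1131 TPM in MC38OVA, and was higher in MC38OVA by 1.89 ± 0.30 (SE, adjusted p = 1.1e-05, limma). Marchf1, the ligase that removes class II from the surface, averaged 5.51 TPM in Renca, 29.1 TPM in MC38OVA and 1.04 TPM in B16F10, and was higher in MC38OVA by 1.99 ± 0.27 and lower in B16F10 with a log2 fold change of -2.29 ± 0.27 (SE, adjusted p = 9.4e-07 and 4.0e-08, limma).

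Markers of antigen-presenting cells did not all move with class II. Of 10 conventional dendritic cell genes, 2 were higher in Renca (Cd209a and Itgax), 3 were higher in MC38OVA and 5 were lower in B16F10. The shares of all genes called in these directions were 12.4%, 10.2% and 23.2%, so the 2 of 10 in Renca are near that share. Relative to the pan-leukocyte genes the median of the 10 was 0.47 in Renca, -0.71 in MC38OVA and 0.85 in B16F10, against 0.29, -1.51 and 1.34 for all genes. Their summed level was 40.5 to 57.5 TPM in Renca, 49.0 to 104 TPM in MC38OVA and 6.43 to 15.2 TPM in B16F10, while LL2, where no class II member was called, had 49.2 to 65.7 TPM. Of 10 macrophage genes, 2 were higher and 1 lower in Renca, 5 higher in MC38OVA, and all 10 lower in B16F10, so the 2 of 10 in Renca are near the 12.4% of all genes. Relative to the pan-leukocyte genes the median of these 10 was 0.67 in Renca, -0.45 in MC38OVA and -0.49 in B16F10. Their summed level was 1064 to 1962 TPM in Renca and 1662 to 2120 TPM in LL2. Of 8 tested mature dendritic cell genes, 1 was lower in Renca and 2 were higher, Ccl17 and Ccl22, which encode chemokines that attract helper T cells. Ccl17 averaged 35.4 TPM in Renca, against at most 6.47 TPM in any other line. The summed level of all 10 listed mature dendritic cell genes was nevertheless low in Renca, at 127 to 153 TPM. It was 251 to 308 TPM in MC38OVA, 173 to 206 TPM in LL2 and 26.0 to 35.7 TPM in B16F10. The Renca mean of 140 TPM was the lowest outside the B16 sublines. Of 7 epithelial genes 6 were higher in Renca. Whether immune or tumour cells held the class II transcripts of Renca was not tested.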

How the data were processed

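Bulk RNA-seq of the tumour lines (total RNA in TRIzol, stranded TruSeq mRNA libraries) was deposited as one table of TPM values that the authors computed per gene symbol. The submitters' processing notes name Trim Galore 0.6.5, STAR 2.7.3a, StringTie 2.1.2 and mm10, and the annotation and use of strand are not given in the sources used here. Every library sums to 1000000 TPM, so the read depth is unknown and no counting interval is given. Samples were grouped by line from their labels.

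From these values, log2(TPM + 1) was tested with limma 3.58.1 (variance trend) in R 4.3.3 over the 17944 symbols that reached 1 TPM in 3 or more libraries. All 10 members passed, H2-Ea only through libraries of BALB/c origin. The fit held all 30 libraries, so lines share 1 estimate of spread, and strains were compared on 10 line means. P-values were Benjamini-Hochberg adjusted over all genes tested. The members and gene lists were chosen with earlier results of these data known, and the 5 genes most like a member were taken by Pearson's r over line means. Comparisons of lines with their remaining lines share libraries. Promoters are RefSeq's, and coordinates and transcripts GENCODE M21's. The scripts were tested on simulated data. Alternatives were a pseudocount of 0.1, no filter, median-ratio scaling, scaling by 10 pan-leukocyte genes, leaving out both B16 sublines, families of related lines, a replicate block and leaving out each library.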

Additional observations from a re-analysis of the deposited data

Results flagged for a closer look

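H2-Oa in Renca, with a line mean of 9.57 TPM, stood apart from the other 4 lines of BALB/c origin, whose means were 0.491 to 1.08 TPM. On the log2 scale its gap to the next line was 0.827 of the range of the 5 line means, above the critical value of 0.71. It was the only one of 19 groups of 5 line means to pass, and chance alone passes about 1 group in 20. Its 3 libraries had 10.7, 8.69 and 9.29 TPM.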

How the results depend on the processing

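Under alternatives other than leaving out a library, 176 member counts stayed within 1.5 times and 25 did not. In Renca 8 of 9 members were higher under each of these settings and 9 relative to leukocyte genes, and 8 whichever library was left out. Scaling by leukocyte genes put the median of all genes between -1.51 (MC38OVA) and 1.45 (B16F1): higher members were 0 in MC38OVA (with 1 lower), 0 in EMT6 (with 5 lower), 5 in B16F1 (with 0 lower) and 1 in B16F10 (with 0 lower), and lower members were 5 in MC38, 6 in LL2 and 2 in CMS5a. On that scale direction was reversed in MC38OVA for H2-Aa (-0.36), H2-Ab1 (-0.35), H2-Eb1 (-0.25), Cd74 (-0.32), H2-DMa (-0.53), H2-DMb1 (-0.12) and Ciita (-0.25), in B16F1 for H2-DMa (0.42), H2-DMb2 (0.21) and H2-Oa (0.59), and in B16F10 for H2-Aa (0.47), H2-Ab1 (0.23), H2-Eb1 (0.38), Cd74 (0.17) and H2-DMa (0.16). Median-ratio scaling gave 3 higher members in MC38OVA, 1 lower in CMS5a and 2 lower in B16F10, where it moved the share of higher among all calls to 40.7%, against 18.6% as deposited. Without B16F1 and B16F10 there were 4 lower members in MC38, 3 higher in MC38OVA, 1 lower in LL2, 1 lower in CMS5a and 1 higher in MC38OVA against MC38. A pseudocount of 0.1 gave 1 lower member in LL2 and 1 higher in CT26NYESO1. Between strains the H2-DMb2 call was lost with no filter, relative to leukocyte genes, without the B16 sublines and over 7 families. The causes were not tested.

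Leaving out 1 library gave 1 to 4 lower members in MC38, 1 to 8 higher in MC38OVA, 1 to 2 higher in EMT6, 0 to 1 lower in LL2, 1 to 2 lower in CT26, 0 to 1 lower in CMS5a, 1 to 4 lower in B16F1 and 2 to 8 lower in B16F10. It gave 0 to 1 higher in MC38OVA against MC38 and 0 to 4 lower in B16F10 against B16F1. Between strains the H2-DMb2 call was lost in 2 of these fits. Over all genes, 205 were higher in MC38OVA against MC38, but 6 without MC38 replicate 2, 558 without MC38OVA replicate 1, and 13 and 17 without MC38OVA replicates 2 and 3. Replicate numbers showed no pairing on average: the correlation of deviations averaged 0.0043 over 135 same-numbered pairs. Single pairs ran from -0.470 to 0.421, so this average cannot exclude a shared batch in some lines. With the replicate block MC38OVA had 7 higher members, against 5 without it, and no other member count changed.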
